A study of Mus musculus with 4 samples.

Results

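Clone-named noncoding transcripts were followed here in mouse fibroblasts given phorone. They are RNAs that the array's design lists as noncoding and identifies by a full-length mouse cDNA clone, each under a number that begins with AK. They were chosen in 2 steps. Of 61307 probes outside the controls, 11881 were noncoding probes with such a clone name, and 4503 of these (37.9%) were kept because the scanner software marked them well above background on every array of the controls, of the phorone samples, or of both. This filter used the signal flags of both groups, so which transcripts were kept, and in which group they were detected, is a description of the choice and not a finding.

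The cells were C3H10T1/2 mouse embryo fibroblasts, a line used to study transformation in culture, after a chemical transformation protocol. All 4 samples, controls included, had received 3-methylcholanthrene (3MC, an initiating polycyclic hydrocarbon) at 2.5 µg/ml for 2 days, then medium for 4 days, then TPA (a tumour-promoting phorbol ester) at 100 ng/ml for 2 weeks, then normal medium for 4 weeks. Of these, 2 samples were controls and 2 were exposed to phorone at 2 mM, and the labels write the compound as PHO. Phorone is an unsaturated ketone known for binding and depleting glutathione, the main small thiol of the cell. Neither the duration of this exposure nor its vehicle is stated in the sources used here. No label ties the samples of a group to separate cultures, so a p-value here reflects how far these 4 samples scatter, and that scatter may be technical. Each group filled a slide row of its own, so row and exposure cannot be told apart.

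Noncoding transcripts of this kind are spliced or unspliced RNAs made by RNA polymerase II that hold no long reading frame. Many start next to a protein-coding gene and run away from it on the opposite strand, since promoters often fire in both directions. Others come from repeats such as the major satellite, the AT-rich tandem repeat around mouse centromeres, which can be transcribed from either strand.

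A set of 9 probes reads one repeat in either direction and moved apart by strand, so their sequences are shown first. They were grouped by shared words of 12 bases after their values had been seen. Every probe has 60 bases and is written 5′ to 3′ in the sense of the transcript. Capitals mark stretches of 12 or more bases whose reverse complement occurs in a probe of the other strand. The 6 clones of the first strand, called forward here, and the 3 clones of the other, called reverse, have these probes:
AK089398 (forward): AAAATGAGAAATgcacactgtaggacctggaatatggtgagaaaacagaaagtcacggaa
AK089559 (forward): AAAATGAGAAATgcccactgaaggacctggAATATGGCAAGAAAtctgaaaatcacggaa
AK089889 (forward): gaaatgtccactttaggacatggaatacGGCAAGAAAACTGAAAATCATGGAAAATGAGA
AK156805 (forward): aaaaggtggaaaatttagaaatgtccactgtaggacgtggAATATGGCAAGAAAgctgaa
AK171704 (forward): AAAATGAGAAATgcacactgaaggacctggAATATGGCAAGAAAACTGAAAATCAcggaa
AK171891 (forward): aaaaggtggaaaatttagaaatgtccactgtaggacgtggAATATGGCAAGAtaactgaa
AK156563 (reverse): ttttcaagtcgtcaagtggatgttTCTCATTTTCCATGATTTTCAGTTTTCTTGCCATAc
AK156768 (reverse): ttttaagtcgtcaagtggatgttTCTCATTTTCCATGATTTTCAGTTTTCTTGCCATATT
AK172117 (reverse): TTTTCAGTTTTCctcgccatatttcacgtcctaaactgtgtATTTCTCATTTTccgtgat

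These letters are recognisable as the mouse major satellite from general knowledge of that repeat, with no consensus set against them here, and between 60% and 68.3% of the bases are A or T. AK171704 and AK156768 each share 37 of their 60 bases, by these words, with the other strand. The array reports them at no position, and a repeat of this kind lies on many chromosomes, so a probe here measures a family of copies and not 1 locus.

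A further set of probes is shown because it marks the extremes of the change, namely the largest rise (AK155522), the largest fall (AK144697), and the largest lower bound on a change among transcripts seen in 1 group only (AK136239 with phorone, AK045874 in the controls). The files give none of these probes a position.
AK155522: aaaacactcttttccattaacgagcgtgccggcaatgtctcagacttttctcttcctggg
AK144697: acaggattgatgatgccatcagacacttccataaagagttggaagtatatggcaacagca
AK136239: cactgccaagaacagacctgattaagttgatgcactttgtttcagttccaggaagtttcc
AK045874: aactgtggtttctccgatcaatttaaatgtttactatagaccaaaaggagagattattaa

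A pair of start regions is shown because the clone-named transcript there could be placed next to a gene. Each window runs in the direction of the gene, from 250 bases before its annotated start to 50 bases after it, in RefSeq's GRCm38.p6, and the capitals are the stretch that the probe of the clone binds on the opposite strand. For Mkln1 the window is chr6:31398578-31398877 on the plus strand and the probe of AK045552 lies at chr6:31398622-31398681. For Gbe1 the window is chr16:70313699-70313998 on the plus strand and the probe of AK158573 lies at chr16:70313840-70313899.
Mkln1: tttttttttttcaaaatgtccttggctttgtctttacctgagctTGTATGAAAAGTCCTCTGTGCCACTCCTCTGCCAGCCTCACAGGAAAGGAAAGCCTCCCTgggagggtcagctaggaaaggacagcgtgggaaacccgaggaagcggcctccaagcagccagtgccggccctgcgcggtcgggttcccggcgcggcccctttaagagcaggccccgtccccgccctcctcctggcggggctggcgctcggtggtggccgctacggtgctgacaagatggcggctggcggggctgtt
Gbe1: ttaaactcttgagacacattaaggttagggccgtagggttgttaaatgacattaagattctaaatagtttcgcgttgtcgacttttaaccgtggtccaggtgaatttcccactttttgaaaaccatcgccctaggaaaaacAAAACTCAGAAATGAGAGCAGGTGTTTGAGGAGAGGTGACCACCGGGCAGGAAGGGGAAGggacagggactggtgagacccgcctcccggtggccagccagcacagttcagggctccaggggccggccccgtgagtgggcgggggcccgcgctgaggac

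Values below are levels on a log2 scale, the processed signal of a probe minus the 75th percentile of its array, so a level of 0 is that percentile. A difference of 1 on this scale is a 2-fold change. The 75th percentile itself was 701 and 747 intensity units for the controls and 563 and 572 for phorone. No spot was saturated, and between 37.5% and 39.2% of the 11881 clone-named probes were well above background on each array. The precision is limited by the number of arrays. Over the clone-named transcripts measured on all arrays, the 2 control arrays correlated at 0.991 and the 2 phorone arrays at 0.992, and arrays of different groups at 0.968 to 0.974. All 12 fibroblast marker genes on the array, among them Col1a1, Vim and Thy1, passed the filter, as did 3 of 5 leukocyte, 2 of 5 epithelial, 1 of 4 endothelial and 0 of 3 hepatocyte markers. Among the 10 fibroblast markers measured on all arrays, 6 were called lower and 0 higher with phorone, the other 2 (Lum and Fap) were seen in the controls only. Of the leukocyte markers, Cd68, a macrophage lysosomal protein, was called higher (log2 fold change 1.26, limma adjusted p = 0.0134), while Ptprc and Itgam were not well above background on both arrays of either group. The part of these markers in the results that follow was not tested. In bulk RNA, fewer cells of a type and less RNA per cell cannot be told apart.

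Of the 4503 kept transcripts, 3852 were well above background on all 4 arrays, 372 on both arrays of 1 group and 1 of the other, 168 in the controls alone and 111 with phorone alone. A transcript detected in 1 group only had passed through that group, a choice that favours a difference. Counts of change are therefore given for the first set, in which 10 transcripts with a spot marked as an outlier were not fitted and 3842 remained. Within these, 461 were higher and 365 lower with phorone at a limma adjusted p below 0.05, adjusted over all 31903 probes tested. That is 21.5% of them called in either direction (12% higher and 9.5% lower), against 36% of all probes measured on all arrays (20.7% higher and 15.2% lower). The count depended on the arrays used. With phorone replicate 2 left out, 189 were called higher and 190 lower, with phorone replicate 1 left out, 286 and 192, and with control replicate 2 left out, 305 and 240. It also depended on the probes fitted together, at 127 and 123 with no filter on dim probes and 204 and 166 with noncoding probes alone. Scaled to the spike-in probes in place of the 75th percentile, the split was 345 higher and 52 lower, with the median of all tested probes moved from 0.09 to 0.53 on the log2 scale. In the spike-in fit limma gave every probe the same variance, so its p-values are not like those of the main fit.

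The share called among clone-named transcripts was near that of other noncoding probes and below that of gene probes. Of 2757 noncoding probes without a clone name, 21.6% were called (12.6% higher and 9% lower), and of 22217 gene probes, 40.3% (23.3% higher and 17% lower). Changes of at least 2-fold were called for 155 clone-named transcripts upward and 134 downward, which is 7.52% of them, against 17.1% of gene probes and 14.9% of all probes. Of all probes, 7.14% were called at that size upward and 7.79% downward. The median log2 fold change was 0.07 for the clone-named transcripts, 0.10 for all probes and 0.12 for gene probes. Their median standard error, 0.164, was close to that of gene probes, 0.152.

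Signal level was then held fixed, since noncoding probes were dimmer. In 4 ranges of mean signal, each holding 960 or 961 clone-named transcripts, the share called was 17.6%, 23.1%, 25.9% and 19.4% from the dimmest to the brightest. Gene probes in the same ranges were called in 26.6%, 45.6%, 47.2% and 38.3% of cases. The clone-named share was below the gene share in every range, and the median standard errors of the pair differed by at most 0.00682 within each.

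**Figure D1:**
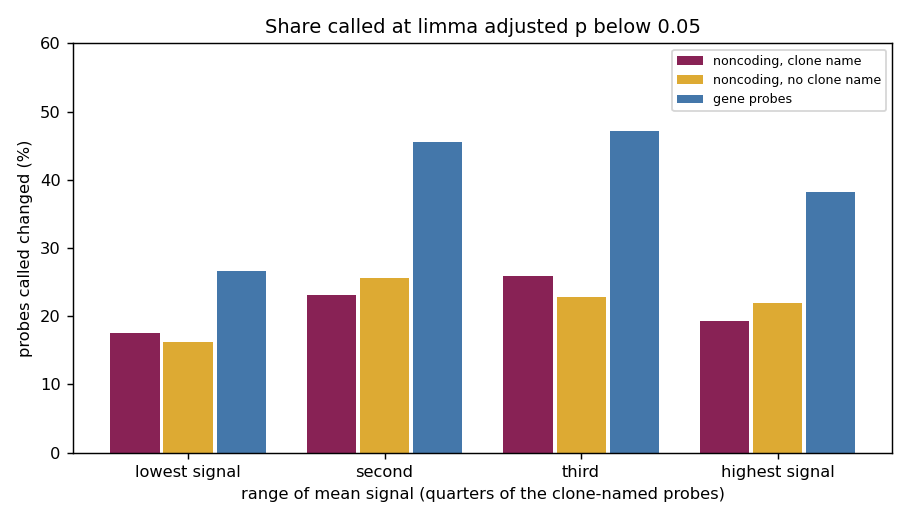
Share of probes called changed (limma adjusted p below 0.05, in percent, bars from 0) in 4 ranges of mean signal, for noncoding probes with a clone name, noncoding probes without one and gene probes. In each range both kinds of noncoding probe lie below the gene probes, at 17.6% against 26.6% in the dimmest and 19.4% against 38.3% in the brightest.

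The probes of the repeat moved in opposite directions by strand. All 5 forward clones measured on all arrays were lower with phorone, with log2 fold changes from -2.78 to -1.94, and all 3 reverse clones were higher, from 1.85 to 2.10; these directions were the same with spike-in, median and quantile scaling. AK171704, the brightest forward clone, stood at 3.64 and 1.93 on the control arrays and at 0.32 and 0.14 on the phorone arrays. Its groups did not overlap, but control replicate 1 lay far above control replicate 2. Its log2 fold change was -2.56 (SE 0.56, n = 2 per group, limma adjusted p = 0.0236). With control replicate 1 left out it was -1.70.

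The same step between the control arrays ran through the 5 forward clones measured on all arrays, at 1.41 to 1.79 on the log2 scale. Across all 3842 transcripts that step had a median of -0.04, and it exceeded 1 in 28 of them. AK089559, the forward clone with the largest fall, stood at 2.56 and 0.77 in the controls and at -1.14 and -1.10 with phorone (log2 fold change -2.78, SE 0.58, limma adjusted p = 0.0208). With control replicate 1 left out, the 5 forward clones lay between -1.89 and -1.23 and were still called. AK089398, with the smallest fall of the forward clones (-1.94, SE 0.47, limma adjusted p = 0.0315), missed the threshold without either phorone array, at adjusted p = 0.0636 and 0.0518. AK156805 (-2.56) missed it without phorone replicate 2, at a limma adjusted p of 0.0537. All 5 forward calls were lost with no filter on dim probes (limma adjusted p = 0.0827 to 0.111) and with noncoding probes alone (0.0513 to 0.0702). AK089889 was not well above background on both arrays of either group and stood at -4.23, -6.32, -5.96 and -6.75 over the 4 arrays.

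The reverse clones were low in the controls and rose. AK172117 stood at -2.10 and -2.44 on the control arrays and at 0.27 and -0.61 on the phorone arrays (log2 fold change 2.10, SE 0.33, limma adjusted p = 0.00941). AK156768 went from -2.13 and -2.41 to 0.20 and -0.80 (1.97, SE 0.35, limma adjusted p = 0.0137), and AK156563 from -1.85 and -2.22 to 0.34 and -0.71 (1.85, SE 0.37, limma adjusted p = 0.0189). In all of these the phorone arrays lay above both control arrays, with phorone replicate 1 the higher. Without control replicate 2, AK156768 and AK156563 missed the threshold at limma adjusted p = 0.0616 and 0.0795, and with no filter on dim probes at 0.0614 and 0.0769. A further 12 noncoding probes without a clone name carry the forward repeat, and all 12 were called lower, with log2 fold changes from -2.74 to -1.41; no such probe carries the reverse strand. These probes can bind the same transcripts, so they are not independent of each other.

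**Figure D2:**
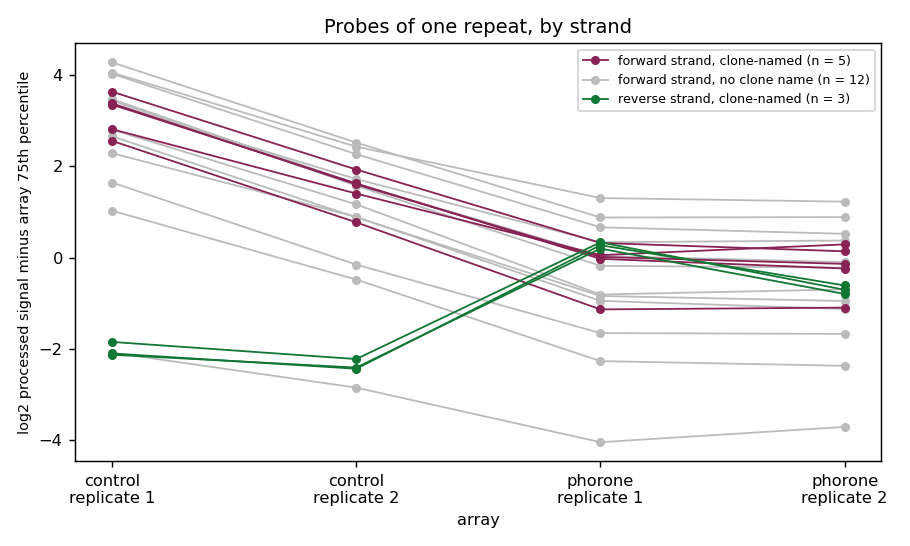
Level of each repeat probe on the 4 arrays (y axis, log2 processed signal minus the array's 75th percentile), with 1 line joining the values of each probe for 5 forward clones, 12 forward probes without a clone name and 3 reverse clones. The forward probes are highest on control replicate 1, lower on control replicate 2 and lowest on the phorone arrays, while the reverse clones lie between -2.44 and -1.85 in the controls and between -0.80 and 0.34 with phorone.

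The 8 largest rises spanned 2.10 to 3.49 on the log2 scale. AK155522 rose most, from -2.62 and -2.89 on the control arrays to 0.57 and 0.90 on the phorone arrays (log2 fold change 3.49, SE 0.18, n = 2 per group, limma adjusted p = 0.000897). Its lowest phorone value lay more than 3 units above its highest control value. AK045824 was the brightest of these rises and went from 1.39 and 1.56 to 3.42 and 3.80 (2.14, SE 0.18, limma adjusted p = 0.00226). AK009897 went from -3.92 and -3.73 to -1.70 and -1.71, its phorone arrays nearly equal (2.12, SE 0.14, limma adjusted p = 0.00129). AK019783 went from -2.64 and -2.40 to -0.54 and -0.27 (2.12, SE 0.17, limma adjusted p = 0.00199). The others were AK172117 of the repeat, 2 clones at gene starts (AK045552 and AK042008) and AK144771 of the same design cluster as AK042008, given below.

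The 8 largest falls had log2 fold changes from -3.07 to -2.63. AK144697 fell from 1.95 and 2.30 on the control arrays to -0.96 and -0.92 with phorone (log2 fold change -3.07, SE 0.17, limma adjusted p = 0.000961). AK039660 went from -0.31 and -0.47 to -3.28 and -3.57 (-3.03, SE 0.16, limma adjusted p = 0.000917). AK083556 went from 0.68 and 0.75 to -2.40 and -2.21 (-3.02, SE 0.14, limma adjusted p = 0.000709). AK042305 had the tightest controls, 1.50 and 1.48, against -1.35 and -1.58 (-2.96, SE 0.15, limma adjusted p = 0.000785). In these 4 clones the groups lay over 2 units apart.

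The other falls were of the same size. AK043885 went from -0.14 and 0.41 to -2.58 and -2.95 (log2 fold change -2.90, SE 0.24). AK081830 went from 1.76 and 1.79 to -0.82 and -0.99 (-2.68, SE 0.14), and AK142540 from 1.66 and 2.22 to -0.85 and -0.53 (-2.63, SE 0.24). Their limma adjusted p-values lay between 0.000830 and 0.00266, and AK089559 of the repeat completes the set. In size, 10 called rises and 28 called falls reached 4-fold, and the median called change was 0.85 in either direction. The share of all probes at 4-fold was not counted, so these counts are not read as a trait of the clone-named set. At 2-fold, 155 rises and 134 falls were called among clone-named transcripts, against 2057 and 2246 among all probes.

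**Figure D3:**
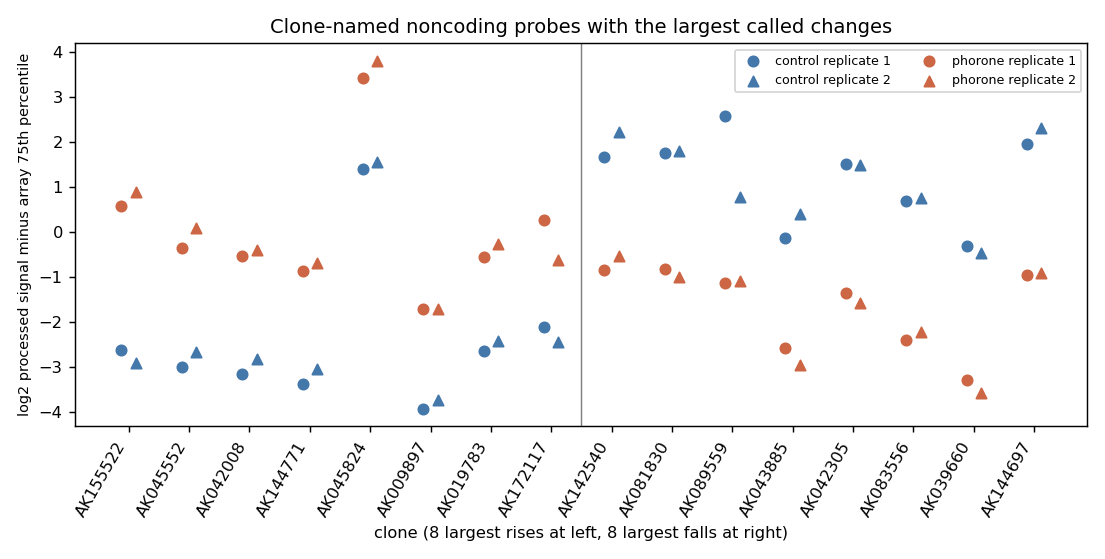
Levels on each array (y axis, log2 processed signal minus the array's 75th percentile) for the 8 largest called rises at left and the 8 largest called falls at right; circles are replicate 1 and triangles replicate 2, blue for control and orange for phorone. The groups are apart in every clone, and AK089559, at 2.56 and 0.77, is the fall whose control arrays lie farthest apart.

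Some transcripts were seen in 1 group only, and for these the change has just a lower bound, the bright group's mean against the dimmest signal that still counted as well above background on the other arrays. AK136239 was measured at -1.16 and -0.83 with phorone and was not well above background in the controls, with signals of -7.08 and -6.98, so it was at least 14.1-fold higher. AK163727, at -1.35 and -2.10 with phorone, was at least 8.49-fold higher. AK021113 had the same size of bound, 8.51-fold, but its phorone arrays read -3.09 and -0.35. AK019948 was at least 6.09-fold and AK004213 at least 4.34-fold higher.

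In the opposite direction, AK045874 was measured at -2.16 and -0.89 in the controls against phorone signals of -6.06 and -6.23 that were not well above background, and was at least 8.83-fold lower. AK144863, at -1.34 and -1.99 in the controls, was at least 8.03-fold lower. AK162045 was at least 6.33-fold, AK138738 at least 5.23-fold and AK083715 at least 4.99-fold lower. Among the 168 transcripts seen in the controls alone, 35 had a bound of 2-fold or more, and 4 had a bound under 1-fold, which sets no direction. Among the 111 seen with phorone alone, 33 had a bound of 2-fold or more and 0 had one under 1-fold. All transcripts seen in 1 group only were fitted with the rest, but no p-value is given for them, because the filter chose them on the same signals.

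The brightest clone-named transcripts did not pass the test. AK050723 stood at 9.06 and 9.03 in the controls and at 9.37 and 9.45 with phorone (log2 fold change 0.37, SE 0.13, limma adjusted p = 0.0798). AK046921 and AK165223 differed by 0.30 and 0.27, at limma adjusted p = 0.161 and 0.164. By mean over all 4 arrays, the dimmest kept transcripts were AK043991 (-4.49 and -4.13 with phorone) and AK086949 (-4.64 and -4.21 in the controls). That order does not hold within the group that kept a transcript, since AK038769, at -4.53 and -4.26 with phorone, was dimmer there than AK043991. Outside the filter, the brightest by the same mean were AK036830 and AK029760. AK036830 read 8.95 on control replicate 1 and -5.81, -7.07 and -6.83 elsewhere. AK029760 read 4.85 on phorone replicate 1 and at most -6.41 elsewhere. Both were left out because a single array was bright.

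The 3 brightest share a feature of their probes. The design gives for each probe the transcripts it can bind, up to 10, and these 3 probes are at that limit. Of 961 clone-named probes with 10 listed transcripts, 84.8% were kept, against 46.6% of those with 3 to 9 and 30.2% of those with 1 or 2. Of the ones measured on all arrays, 13.2% of the 788 with 10 listed transcripts were called, against 25.0% of 945 with 3 to 9 and 23.0% of 2109 with 1 or 2. A probe at the limit reads a sum over many transcripts, so its value belongs to no single clone. Kept probes had a median GC content of 50% and those not kept 45%.

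For 315 clone-named probes the whole sequence lay in the start window of a single RefSeq gene, which was taken as their position. The rest of the genome was not searched, so such a probe may also match elsewhere. Probes that lay in the start windows of several genes were left out, so the shares below do not cover them. Of the 315, 240 read the strand opposite to the gene (76.2%) and 75 the same strand. Among probes placed in the same way, the opposite-strand share was 82.6% for noncoding probes without a clone name and 53.8% for gene probes. Of the clone-named antisense probes, 215 lay wholly before the gene's annotated start and 25 across it. The reading direction of the array's probes was checked on gene probes in the start window of their own gene, of which 4 read the gene's strand and 0 the opposite one. Among the antisense clones measured on all arrays, 17 of 78 were called higher (21.8%) and 2 lower (2.56%), with a median log2 fold change of 0.08. Over all probes 20.7% were called higher and 15.2% lower, and over all 3842 clone-named transcripts 12% and 9.5%. The antisense share called higher was thus near that of all probes and above that of clone-named transcripts. The share called lower was below both. Of 58 antisense noncoding probes without a clone name, 12 were called higher and 4 lower. Among the sense clones, 2 of 31 were called higher (6.45%) and 6 lower (19.4%). No test of these shares was made.

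The largest changes at gene starts were rises on the antisense side. AK045552, whose window beside Mkln1 is printed above, went from -2.99 and -2.66 on the control arrays to -0.35 and 0.10 with phorone (log2 fold change 2.70, SE 0.22, limma adjusted p = 0.00199). Mkln1 encodes muskelin, a kelch-repeat protein of a ubiquitin ligase complex, and its own probe rose by less, 0.69 (SE 0.13, limma adjusted p = 0.0152). AK042008 lies antisense before Orc2, a subunit of the origin recognition complex that marks replication origins, at chr1:58505183-58505242. It went from -3.16 and -2.81 to -0.54 and -0.40 (2.51, SE 0.17, limma adjusted p = 0.00144), and Orc2 rose by 0.77 (SE 0.13, limma adjusted p = 0.0119). AK144771, which the design puts in the same cluster as AK042008, went from -3.38 and -3.03 to -0.86 and -0.68 (2.44, SE 0.18, limma adjusted p = 0.00156).

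At other starts the clone and the gene were called in opposite directions. AK158573, in the Gbe1 window printed above, stood at 3.94 and 4.68 in the controls and at 2.79 on both phorone arrays (log2 fold change -1.52, SE 0.26, limma adjusted p = 0.0127). The groups did not overlap, and the control arrays lay farther apart than the phorone arrays. Gbe1, the branching enzyme of glycogen synthesis, rose by 2.95 (SE 0.21, limma adjusted p = 0.00157), the largest change of any gene in the pairs that were both called. AK050536, antisense before Cox20, an assembly factor of cytochrome c oxidase, rose by 1.66 (SE 0.18, limma adjusted p = 0.0040) while Cox20 fell by 0.62 (SE 0.17, limma adjusted p = 0.0404). AK077427, antisense before the alpha-mannosidase gene Man2c1, rose by 1.03 while Man2c1 fell by 0.69, and AK144334, antisense across the start of Hnrnpab, an RNA-binding protein gene, fell by 0.74 while Hnrnpab rose by 0.69. The calls for AK158573 and AK144334 were lost with spike-in scaling, at limma adjusted p = 0.0732 and 0.651, and with no filter on dim probes, at 0.0582 and 0.0918, and AK144334 missed the threshold without control replicate 2 or phorone replicate 1 as well, at 0.0817 and 0.114, with noncoding probes alone at 0.0685 and with normexp correction at 0.0546.

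Over the 59 antisense clones whose gene was also measured on all arrays, the log2 fold changes of clone and gene correlated at r = -0.09, and both were called in the same direction in 4 pairs and in opposite directions in 4. Besides Mkln1 and Orc2 the pairs called in the same direction were those of Alkbh5, an RNA demethylase, with 0.71 for AK090239 and 1.28 for the gene, and Smg5, a factor of nonsense-mediated decay, with 0.89 for AK168299 and 0.63 for the gene. The 12 sense pairs had r = 0.28. AK045217 on the strand of Svep1 fell by 0.86 and Svep1, an extracellular matrix protein, by 2.92, and AK028267 on the strand of Zfp827 fell by 1.03 and that zinc finger gene by 0.87. The correlations are across transcripts on the same 4 arrays and are given as a description.

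**Figure D4:**
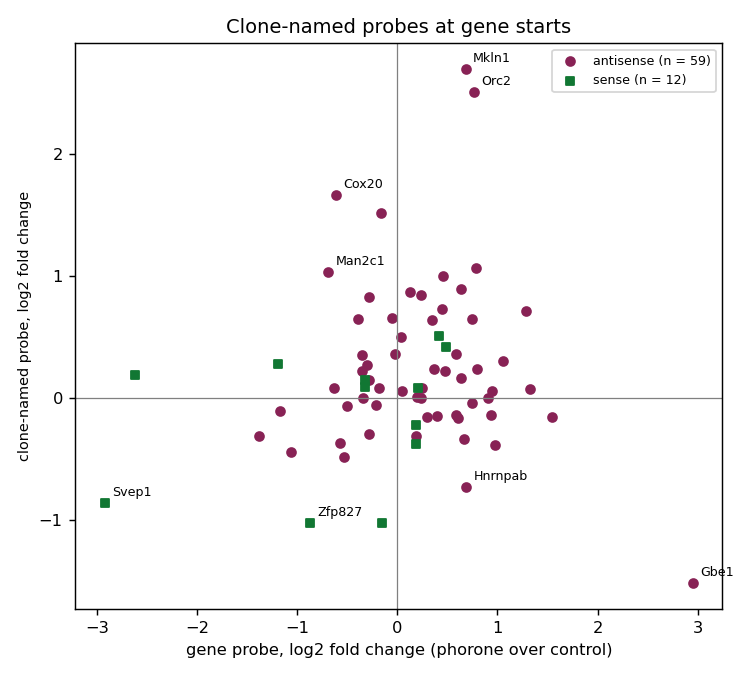
Log2 fold change with phorone of clone-named probes that lie at a gene start (y axis) against that of the gene's brightest kept probe (x axis), for 59 antisense pairs and 12 sense pairs measured on all arrays. Mkln1 and Orc2 sit high with a modest gene change, at 2.70 and 2.51 against 0.69 and 0.77, and Gbe1 sits at the lower right, at -1.52 against 2.95.

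The windows were searched for a pair of motifs on both strands. The core of the antioxidant response element, TGACNNNGC, to which the stress factor Nrf2 binds, was present in 2 of the 17 windows with a called antisense rise (11.8%) and in 12.4% of all 32851 start windows. The CCAAT box was present in 8 of the 17 (47.1%) and in 37.4% of all windows. In the 78 windows of antisense clones measured on all arrays, the shares were 12.8% for TGACNNNGC and 32.1% for the CCAAT box. A match describes letters in this window and not a bound site.

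Clones of one design cluster, a set of transcripts that the design numbers together, could differ widely. Of 213 clusters with more than 1 transcript measured on all arrays, 91 held a call, 11 had every transcript called in the same direction, and 10 held calls in opposite directions. Over all 3842 clone-named transcripts 21.5% were called. The cluster counts were not set against those that calls spread at random over the clusters would give. The cluster of AK155522, named u204552, holds 35 clone-named probes on the array, of which 21 were measured on all arrays. In it 4 were called higher and 0 lower at a limma adjusted p below 0.05, where 20.7% of all probes were called higher and 15.2% lower. The 17 others in the cluster ranged from -0.27 to 0.65. AK134019 had the second largest rise and went from -2.32 and -1.76 to -0.27 and -0.08 (log2 fold change 1.87, SE 0.22, limma adjusted p = 0.00506). AK134059 rose by 0.82 and AK142309, antisense before Dpf2 at chr19:5913011-5913070, by 0.50. The median of the cluster was 0.09, so the size of AK155522 was not shared by most clones that carry its number.

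**Figure D5:**
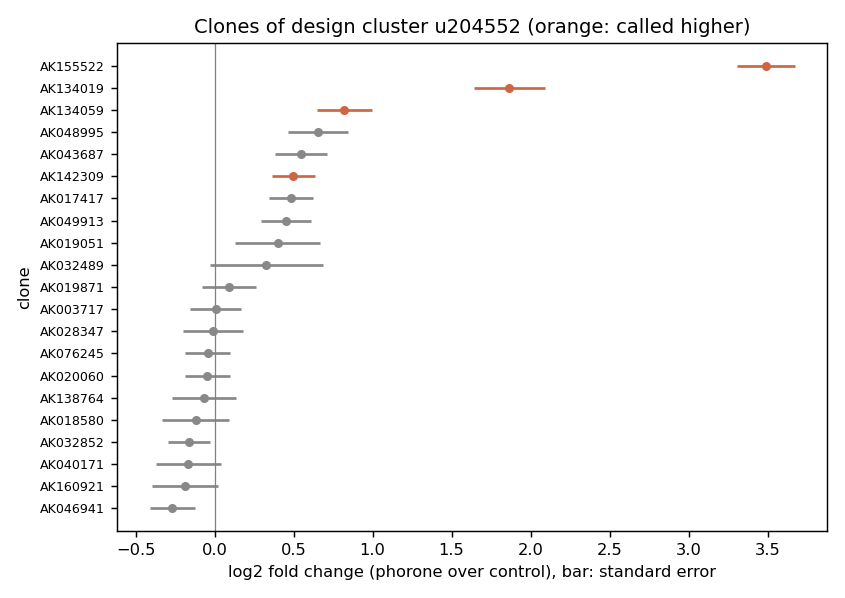
Log2 fold change with its standard error (x axis) for the 21 clones of design cluster u204552 measured on all 4 arrays, sorted, with the 4 called higher in orange. AK155522 at 3.49 and AK134019 at 1.87 stand apart from 17 clones that were not called and range from -0.27 to 0.65.

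The noncoding label was checked against the gene probes. Of the kept transcripts, 20 shared at least 25 bases on the same strand with a gene probe. For 9 of these the gene is protein-coding in RefSeq. Examples are AK002613 with the ribosomal protein gene Rpl10a, AK048998 with Hmgb1, a chromatin protein, and AK047009 with Ccdc59. Their labels as noncoding are therefore not settled by these data. Over the 18 such pairs measured on all arrays the log2 fold changes of clone and gene probe correlated at r = 0.91. AK047009 rose by 0.57 and the Ccdc59 probe by 0.65, and AK133569 fell by 1.55 and its partner probe, which is named for another clone (AK040896), by 1.22. Not every pair had the same sign. AK002613 differed by 0.28 and the Rpl10a probe by -0.48, and AK031654 by -0.25 and its partner probe by 0.31, none of them called.

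The design also lists 48 of the kept clones under a gene probe elsewhere on the array. AK046417 stood at 2.97 and 2.95 in the controls and at 2.22 and 2.01 with phorone (log2 fold change -0.85, SE 0.14, limma adjusted p = 0.0117), and the probe of Rab22a, a small GTPase of endosomes that lists the same clone, fell by 0.82 (SE 0.13, limma adjusted p = 0.0110). AK048998 fell by 0.56 and the probe of Gm3851 by 0.48. The match was not general. AK167464 differed by 0.02 while the Wdr70 probe that lists it fell by 1.09, and AK148097, at 5.03 to 5.14 on all arrays, was bright where the Gm2912 probe that lists it was not well above background. AK088236 differed by less than 0.01 and the Cbx1 probe by 0.36, neither of them called, and AK049104 and the Calm3 probe differed by -0.36 and -0.33, also not called.

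A small number of clones overlapped a microRNA precursor. The probe of AK043270 shares 58 bases with the Mir5136 hairpin, and it read -3.07 and -3.51 in the controls and -2.70 and -2.60 with phorone (log2 fold change 0.64, SE 0.19, limma adjusted p = 0.0533). The probe of AK041952 shares 41 bases with Mir8093 and differed by -0.30 (SE 0.15, limma adjusted p = 0.184). Neither passed the test. An array probe of this kind reads the longer host RNA and not the mature microRNA.

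Well-known noncoding RNA genes carried by gene probes give a scale for these values. Of 38 listed, 25 were on the array, 19 passed the filter and 18 were measured on all arrays, of which 5 were called higher and 3 lower against the 36% of all probes, with a median of 0.38. Neat1, the scaffold of paraspeckles, rose by 2.06 (SE 0.18, limma adjusted p = 0.00241), and Malat1, a nuclear speckle RNA, by 0.88 (SE 0.15, limma adjusted p = 0.0116). Snhg8, a small nucleolar RNA host, fell by 1.37 (SE 0.15, limma adjusted p = 0.00398). Airn, the antisense RNA of the imprinted Igf2r locus, fell by 1.60 (SE 0.18, limma adjusted p = 0.00432), and Tug1 fell by 0.94. A gene probe labelled Air differed by -1.57 and was not called (SE 0.51, limma adjusted p = 0.0661). The clone-named transcript AK032756, whose number the Air probe carries, differed by 0.21 and was not called (SE 0.14, limma adjusted p = 0.291).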

How the data were processed

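The deposited files are Agilent scanner output for 4 one-colour (Cy3) arrays, and the processed signal used here is an intensity that, per the file headers, Feature Extraction 10.7.3.1 had corrected for background. The value table that the authors deposited is on a log2 scale. Set against the scanner files, it is the log2 processed signal shifted by a constant for each array. In order of control and phorone arrays, the median shifts were -9.446, -9.542, -9.128 and -9.151. The shifts by the 75th percentile used here were close, at -9.454, -9.545, -9.138 and -9.161. The table's column medians were -4.39, -4.35, -4.37 and -4.30, and what it was centred on is not given in the sources used here. The probes' genome positions were not used here: positions come from exact matches of the 60-base probes to RefSeq start windows of GRCm38.p6.

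Log2 signals were centred on the 75th percentile of non-control spots, spots of a probe were averaged, and spots flagged as outliers were left out. Probes that passed the background filter (every array of either group) were fitted together in limma 3.58.1 (R 4.3.3), phorone against control, with Benjamini-Hochberg adjustment over 31903 probes and a threshold of 0.05. The step was tested on simulated data. Same-numbered replicates did not deviate together (r = -0.03), so no block was used. A bound sets the bright group's mean against the lowest signal well above background, or the dim probe's own where higher. Named are the 8 largest called rises and falls, 5 bounds each way, the 3 brightest and clones also listed by gene probes. The dimmest kept and the brightest left out, by mean over the 4 arrays, are named as well. The members and lists were chosen with earlier results of these data known; the repeat probes, start-window pairs, motifs and clusters were chosen after values were seen.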

Additional observations from a re-analysis of the deposited data

How the results depend on the processing

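The 461 clone-named transcripts called higher and 365 called lower became 459 and 365 with quantile normalization, 424 and 389 with median scaling, 396 and 403 with the 75th percentile over probes above background on all arrays, 465 and 363 in the authors' deposited log2 table, and 666 and 358 with normexp background correction. With no filter on dim probes they became 127 and 123, and with noncoding probes fitted alone 204 and 166, where the probes fitted and adjusted over change. Spike-in scaling gave 345 and 52. The spike-in level of control replicate 2 stood at 3.43 against 2.58 to 2.78 on the other arrays. In the spike-in fit limma's prior degrees of freedom were infinite, against 2.91 in the main fit. Every probe was thus tested with the same variance, and its p-values are not like those of the main fit. Leaving out 1 array gave 189 to 378 higher and 190 to 350 lower. No transcript called in the main fit was called in the opposite direction in any of these alternatives. Where a call was lost, a change of sign was looked for among the named transcripts only. A fit with the replicate number as a block gave 373 higher and 292 lower, of which 348 and 270 were called without it; the number is the slide column, and same-numbered arrays did not deviate together. The median log2 fold change of 0.07 became 0.50 with spike-in scaling, 0.11 with normexp and 0.021 with the percentile over probes above background on all arrays, and lay between 0.03 and 0.10 when 1 array was left out. Of 378 values of named transcripts under the alternatives, 353 kept their direction and side of the threshold, 25 kept the direction and missed it, and 0 reversed. Of the 25, the repeat probes lost their calls mostly with no filter on dim probes or with noncoding probes alone. The self-test bears on depth only through the number of arrays, and signals near background allow only bounds.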

Other observations

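Among the 10 design clusters that held calls in opposite directions, the widest spread of called clones was in u193344. AK050253 stood at -2.43 and -2.76 in the controls and at -1.34 and -0.94 with phorone (log2 fold change 1.46, SE 0.21, limma adjusted p = 0.00755). AK046107 of the same cluster stood at -0.73 and -0.76 in the controls and at -2.03 and -2.00 with phorone (-1.27, SE 0.13, limma adjusted p = 0.00314). In u193217, AK015353, on the strand of the Gm28111 start, went from 2.33 and 2.75 to 0.73 and 0.46 (-1.94, SE 0.20, limma adjusted p = 0.00361), while AK046803 rose by 0.54 (SE 0.14, limma adjusted p = 0.0390). In u178626, AK156902 fell by 1.80 (SE 0.24, limma adjusted p = 0.00672) and AK047913, whose probe is at the limit of 10 listed transcripts, rose by 0.71 (SE 0.13, limma adjusted p = 0.0146). The largest such cluster, u186108, had 16 transcripts measured on all arrays, of which 4 were called lower and 1 higher. Over all clone-named transcripts 9.5% were called lower and 12% higher, and over all probes 15.2% and 20.7%. These clusters were picked after their values were seen, and the difference between clones of a cluster was not tested.

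AK075904 read 9.51 on control replicate 1, where its spot was marked as an outlier, against -0.08 on control replicate 2 and 0.31 and 0.21 with phorone, and it was not fitted.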
